A study of Homo sapiens with 12 samples.

Results

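Amino acids cross the cell membrane through solute carrier (SLC) proteins, each with its own set of substrates. Exchangers of the SLC7 family pair with the heavy chain SLC3A2, known as CD98, and trade intracellular amino acids for essential ones. Sodium-coupled carriers of the SLC1 and SLC38 families load the cell with glutamine and other small neutral amino acids. Activated T cells and T-cell leukemias are known to depend on this uptake for growth. The 10 transporter genes described here were chosen by name, with earlier results of these data known. They are SLC3A2, SLC7A5, SLC7A6, SLC7A11, SLC1A5, SLC38A1, SLC38A2, SLC38A5, SLC7A1 and SLC43A1. All probe sets annotated with 1 of these symbols were taken, which gave 23 of the 54675 probe sets on the array.

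The values come from CCRF-CEM-C7H2, a human T-cell acute lymphoblastic leukemia line that is sensitive to glucocorticoids, measured on Affymetrix HG-U133 Plus 2.0 arrays. The groups were 100 nM dexamethasone, a synthetic glucocorticoid, for 6 h, its carrier ethanol (0.1%) for 6 h, and dexamethasone and ethanol for 24 h. Each group held 3 arrays of independent experiments, numbered 0, 1 and 3 at 6 h and 1, 2 and 3 at 24 h. All 12 arrays are of 1 line, so they describe that line. The study asked which primary microRNA transcripts respond to the glucocorticoid, and the transporters were read here from the same arrays.

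Values are the deposited log2 expression values, on which a difference of 1 is a doubling. Levels of different probe sets were not compared, because the value of a probe set also depends on its probes. A probe set was tested when it reached a log2 of 4 on at least 3 arrays. Of the 23 transporter probe sets 20 passed, and each of the 10 genes kept at least 1. Each gene is given by its brightest tested probe set (by the mean of the 12 arrays), which is the one meant where none is named. Differences are dexamethasone minus ethanol ± the standard error from limma, with p values adjusted by Benjamini-Hochberg over all 23265 tested probe sets. A gene rose or fell where the adjusted p was under 0.05.

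Between 22503 and 22941 probe sets per array had a log2 of 4 or more (41.2 to 42.0%), a count that quantile normalization holds nearly equal. All 8 T-cell markers listed were above that level, among them CD3D, CD3E, CD7 and LCK. Of the B-cell markers CD79A was above it and MS4A1 and CD22 were not. All 5 myeloid markers and HBB, an erythroid marker, lay below it. Of 4 stromal markers COL1A1 passed the filter, by 1 _x_at probe set. Codes in the labels place the dexamethasone arrays of 6 h, the ethanol arrays of 6 h and all arrays of 24 h in 3 sets. At 6 h this code and the treatment cannot be told apart. The poly-A spike controls, RNAs added before labelling, were higher with dexamethasone by a log2 difference of 0.47 at 6 h and 0.34 at 24 h. The hybridization controls, added after labelling, were higher by 0.34 and 0.38. Where a scaling to the poly-A controls ends a call or turns a direction, its value is given beside the result as the value on the poly-A scale. The part of these controls in the results was not tested.

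Promoter windows of the transporters are shown because most of these genes fell at 24 h. Windows were taken from RefSeq on GRCh38.p14 and run from 250 bases before an annotated start to 50 bases after it. The table held 15 windows for 9 of the 10 genes, all but SLC7A11. Both strands were searched for the E-box CACGTG, which the transcription factor MYC and its relatives bind, and for the amino acid response element TGATGNAAN, which ATF4 and its partners bind. Capitals mark the matches. Positions are counted from the annotated start.

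The E-box was found in 4 of the 15 windows, against 7.26% of all 35116 windows in the table. These were single windows of SLC7A5 (position -130), SLC43A1 (-112), SLC38A5 (-206) and SLC1A5 (-50, at an inner start). The first 3 read as follows, each 5′ to 3′ on its gene's strand.
SLC7A5, minus strand, chr16:87869458-87869757: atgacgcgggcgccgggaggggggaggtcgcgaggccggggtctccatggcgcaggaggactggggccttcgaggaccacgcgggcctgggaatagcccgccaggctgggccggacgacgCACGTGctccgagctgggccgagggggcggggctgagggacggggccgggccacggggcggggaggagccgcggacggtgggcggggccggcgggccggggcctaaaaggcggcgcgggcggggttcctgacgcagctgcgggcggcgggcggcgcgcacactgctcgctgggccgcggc
SLC43A1, minus strand, chr11:57515653-57515952: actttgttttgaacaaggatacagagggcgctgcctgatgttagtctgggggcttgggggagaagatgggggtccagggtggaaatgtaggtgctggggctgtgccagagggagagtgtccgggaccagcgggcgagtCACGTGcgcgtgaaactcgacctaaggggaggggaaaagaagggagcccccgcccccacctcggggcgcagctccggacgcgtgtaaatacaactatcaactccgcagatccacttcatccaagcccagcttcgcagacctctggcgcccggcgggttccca
SLC38A5, minus strand, chrX:48470211-48470510: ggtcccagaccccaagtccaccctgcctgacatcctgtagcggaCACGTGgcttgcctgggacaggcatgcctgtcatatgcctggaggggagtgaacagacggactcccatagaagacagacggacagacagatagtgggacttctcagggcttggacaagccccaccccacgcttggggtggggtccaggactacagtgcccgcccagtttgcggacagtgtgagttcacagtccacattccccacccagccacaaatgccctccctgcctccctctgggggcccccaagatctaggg

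The amino acid response element was also found in 4 of the 15 windows, against 3.61% of all windows. They belong to the outermost start of SLC7A1 (position 7) and to inner starts of SLC3A2 (36, on the opposite strand), SLC38A1 (-4) and SLC1A5 (-97). These inner starts lie 25590, 2527 and 3780 bases inside the annotated gene. The windows of SLC7A1 and SLC3A2 are shown with that of SLC38A2, the gene that rose. SLC38A2, which rose, held neither motif in its window, and nor did SLC7A6, which fell. SLC38A1, which held the response element, did not pass the test. Sites outside the windows were not searched, and a link of motif and direction was not tested. Some genes have several windows, and the share of all genes with a match was not counted. An excess of either motif was thus not tested.
SLC7A1, minus strand, chr13:29595639-29595938: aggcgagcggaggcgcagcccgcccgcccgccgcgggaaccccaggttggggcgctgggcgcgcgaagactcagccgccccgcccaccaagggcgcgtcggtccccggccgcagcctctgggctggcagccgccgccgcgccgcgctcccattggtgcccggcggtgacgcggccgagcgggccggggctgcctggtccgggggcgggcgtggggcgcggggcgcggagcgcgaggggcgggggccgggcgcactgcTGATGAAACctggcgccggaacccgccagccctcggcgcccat
SLC3A2, plus strand, chr11:62881449-62881748: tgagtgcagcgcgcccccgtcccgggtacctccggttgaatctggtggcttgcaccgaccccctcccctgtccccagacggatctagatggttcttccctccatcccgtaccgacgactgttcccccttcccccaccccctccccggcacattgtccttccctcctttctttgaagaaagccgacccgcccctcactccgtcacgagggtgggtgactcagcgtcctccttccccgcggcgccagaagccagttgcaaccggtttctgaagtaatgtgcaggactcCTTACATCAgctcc
SLC38A2, minus strand, chr12:46372724-46373023: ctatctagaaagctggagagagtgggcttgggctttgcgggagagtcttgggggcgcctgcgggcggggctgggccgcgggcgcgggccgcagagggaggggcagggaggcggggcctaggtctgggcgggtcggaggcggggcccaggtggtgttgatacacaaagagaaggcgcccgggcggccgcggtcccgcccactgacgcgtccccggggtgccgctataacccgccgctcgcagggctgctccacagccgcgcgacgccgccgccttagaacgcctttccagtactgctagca
A match is a run of letters and no proof of binding. The palindromic glucocorticoid response element was searched too, and was found in 0 of the 15 windows and in 1 of all 35116.

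After 6 h of dexamethasone 1 of the 10 transporter genes, SLC38A2, rose and none fell. After 24 h 7 of the 10 fell, led by SLC38A5, SLC43A1 and SLC7A1, and SLC38A2 was the 1 that rose. The 6 h test was passed by 6.49% of the 9947 genes with a tested probe set (2.72% higher and 3.77% lower). At 24 h 52.0% of them passed (23.9% higher and 28.1% lower). The median log2 difference of the 10 transporters was -0.12 at 6 h and -0.48 at 24 h, against -0.0023 and -0.022 over all tested genes. The transporters were chosen with earlier results of these data known, so these counts and medians are a description and no test. These are bulk cultures, in which fewer cells of a kind and less RNA per cell cannot be told apart. Of the 8 T-cell markers 3 rose and 3 fell at 24 h, with differences between -0.53 and 0.66. The B-cell marker CD79A moved with dexamethasone at 24 h too, at 11.64 to 11.80 with dexamethasone and 10.02 to 10.25 with ethanol, while MS4A1 and CD22 stayed below a log2 of 4. The part of these markers in the results was not tested. At an unadjusted p under 0.05 limma gave 3 of the 10 transporters at 6 h and 8 at 24 h, against 21.1% and 58.5% of all tested genes.

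**Figure D1:**
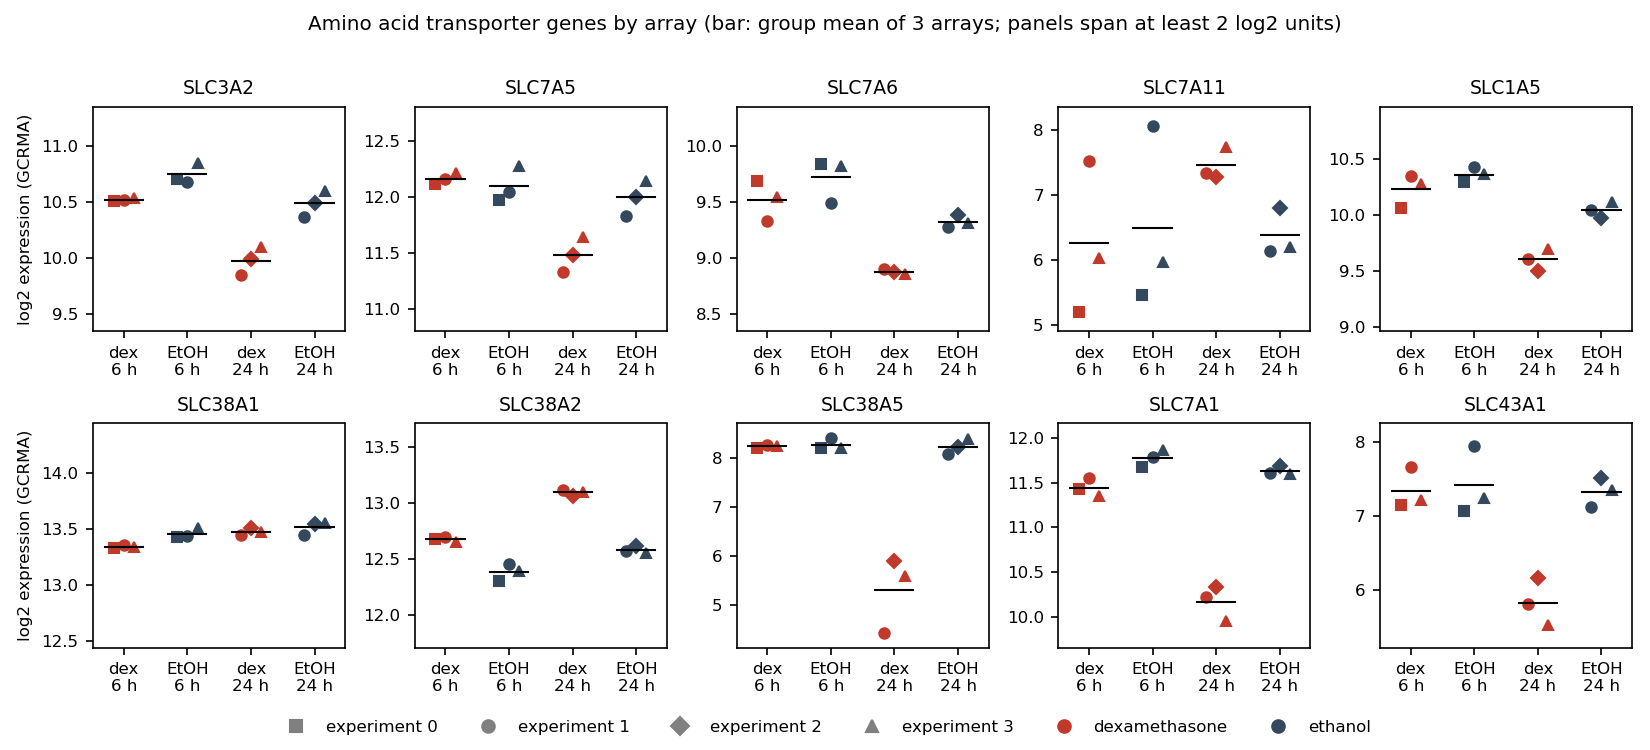
Log2 expression of the 10 transporter genes on each array, from the probe set that stands for the gene; the horizontal axis gives the 4 groups, marker shapes the experiments and bars the group means of 3 arrays. At 24 h the dexamethasone arrays lie below the ethanol arrays for 7 genes and above them for SLC38A2 and SLC7A11, while SLC38A1 overlaps.

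The heavy chain SLC3A2 carries several SLC7 exchangers to the membrane. At 6 h its probe set 200924_s_at read 10.51, 10.52 and 10.54 with dexamethasone (experiments 0, 1 and 3), against 10.71, 10.68 and 10.85 with ethanol. At 24 h it read 9.85, 9.99 and 10.10 with dexamethasone (experiments 1, 2 and 3), against 10.37, 10.49 and 10.60 with ethanol. The groups did not overlap at either time, and dexamethasone was lower in each experiment. The difference was -0.23 ± 0.09 at 6 h (adjusted p = 0.183; -0.69 on the poly-A scale, adjusted p = 0.00238) and passed the test at 24 h, at -0.51 ± 0.09 (adjusted p = 0.000732). That is 0.702 times the ethanol level.

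SLC7A5, known as LAT1, brings in leucine and other large neutral amino acids as the partner of SLC3A2. At 6 h it read 12.11, 12.16 and 12.21 with dexamethasone, against 11.97, 12.04 and 12.27 with ethanol, and the groups overlapped. At 24 h it read 11.33, 11.48 and 11.64 with dexamethasone, against 11.83, 12 and 12.14 with ethanol, with no overlap. The difference was 0.07 ± 0.11 at 6 h (adjusted p = 0.802; -0.40 on the poly-A scale, adjusted p = 0.0281). At 24 h SLC7A5 fell by 0.51 ± 0.11 (adjusted p = 0.00319). Within experiments 1, 2 and 3 the 24 h differences were -0.50, -0.53 and -0.51, and those of SLC3A2 were -0.53, -0.51 and -0.50. At 6 h they lay apart, at 0.14, 0.12 and -0.06 for SLC7A5 and -0.20, -0.16 and -0.31 for SLC3A2 (experiments 0, 1 and 3).

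SLC7A6 encodes y+LAT2, another partner of SLC3A2, which exports arginine in return for glutamine and leucine. Its brightest probe set, 203580_s_at, read 8.90, 8.87 and 8.85 at 24 h with dexamethasone, against 9.27, 9.38 and 9.31 with ethanol. It fell by 0.45 ± 0.11 (adjusted p = 0.00631), and all 3 of its probe sets fell, by between 0.42 and 0.76. At 6 h its difference was -0.20 ± 0.11 (adjusted p = 0.347; -0.67 on the poly-A scale, adjusted p = 0.00755).

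SLC7A11, known as xCT, is the partner of SLC3A2 that takes up cystine in return for glutamate and feeds glutathione synthesis. At 24 h it read 7.35, 7.28 and 7.75 with dexamethasone, against 6.15, 6.80 and 6.20 with ethanol, so that dexamethasone was higher in all 3 experiments and the groups did not overlap. The difference of 1.07 ± 0.66 did not pass the test (adjusted p = 0.206). With the experiment as a block it did (1.07 ± 0.20, adjusted p = 0.00389), and its second tested probe set, 217678_at, also differed by 1.07 (± 0.52, adjusted p = 0.117).

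The wide error of SLC7A11 goes with the 6 h arrays. There it read 5.21, 7.53 and 6.04 with dexamethasone in experiments 0, 1 and 3, against 5.47, 8.06 and 5.98 with ethanol. Both arrays of experiment 1 were thus high, whatever the treatment, and the difference at 6 h was -0.25 ± 0.66 (adjusted p = 0.890). Probe set 217678_at read 5.61, 7.17 and 5.62 with dexamethasone, against 5.24, 7.42 and 6.05 with ethanol, with the same experiment high. With both 6 h arrays of experiment 1 left out, a choice made after the values were seen, the 24 h difference was 1.07 ± 0.26 (adjusted p = 0.00901). Its remaining probe set, 207528_s_at, lay at or below 1.85 on all arrays and was not tested.

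ASNS, the asparagine synthetase gene, had the same experiment high (chosen after its values were seen). It read 8.64, 9.82 and 9.04 with dexamethasone at 6 h, against 8.69, 9.66 and 8.55 with ethanol. SLC43A1 was also highest in experiment 1 at 6 h in both groups, as were SLC1A5, SLC38A2 and SLC38A5. With dexamethasone the margins of the last 3 were small. Experiment 1 and the next highest array read 10.34 and 10.27 for SLC1A5, 12.70 and 12.68 for SLC38A2, and 8.27 and 8.24 for SLC38A5. SLC7A6 was lowest there in both groups, at 9.33 with dexamethasone and 9.49 with ethanol. SLC3A2, SLC7A5, SLC38A1 and SLC7A1 were not highest there in both groups. The share of all genes highest in experiment 1 was not counted. Over all tested probe sets its dexamethasone and ethanol arrays of 6 h shared deviations from their group means (r = 0.627). ATF4, the transcription factor that drives ASNS and SLC7A11 when amino acids run short, read 12.30, 12.73 and 12.60 with dexamethasone, against 12.47, 12.86 and 12.75 with ethanol. Its highest array in each group was that of experiment 1, with the next highest at 12.60 with dexamethasone and 12.75 with ethanol. The cause of the high values in experiment 1 was not tested, and nor was a part of amino acid shortage in them.

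**Figure D2:**
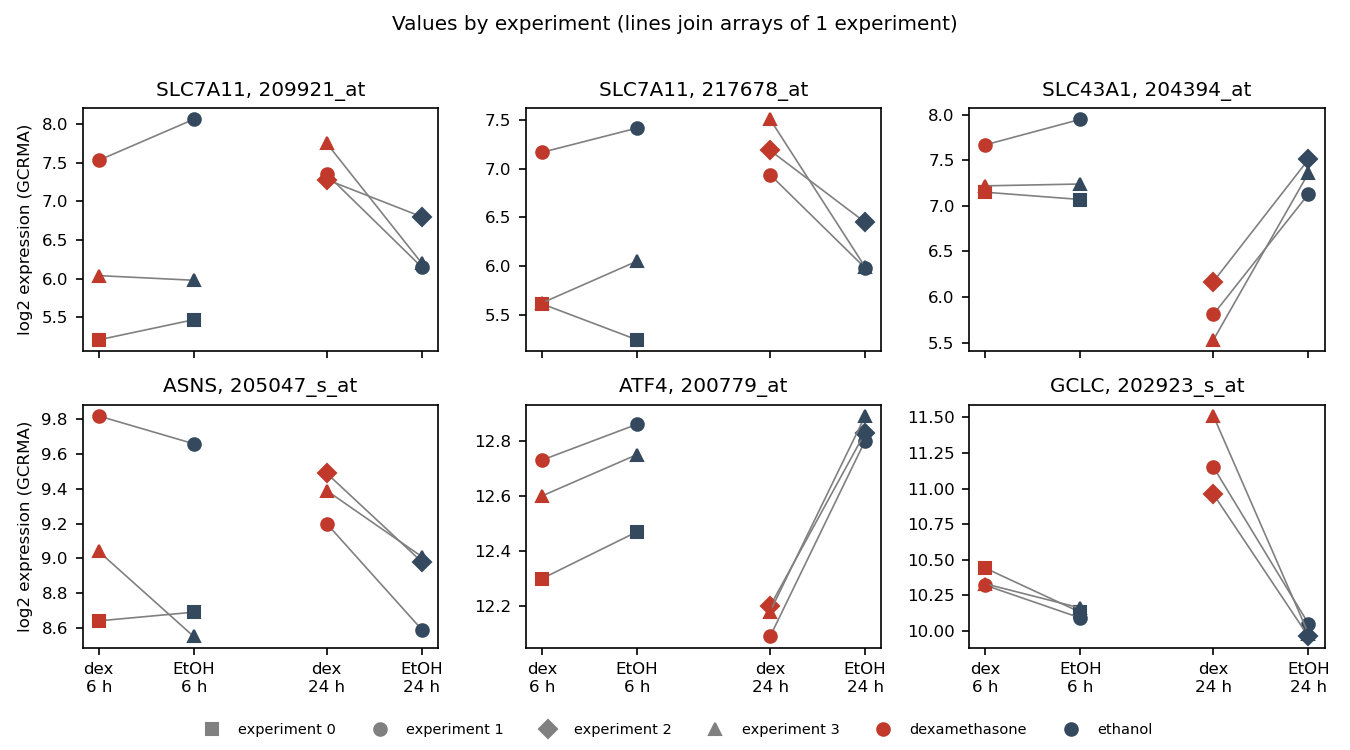
Log2 expression of SLC7A11 (2 probe sets), SLC43A1, ASNS, ATF4 and GCLC on each array, with lines joining the dexamethasone and ethanol arrays of 1 experiment. At 6 h experiment 1 is the highest in both groups for SLC7A11, SLC43A1, ASNS and ATF4; at 24 h dexamethasone is above ethanol in each experiment for SLC7A11, ASNS and GCLC and below it for SLC43A1 and ATF4.

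SLC1A5, known as ASCT2, exchanges glutamine and other neutral amino acids with sodium. It read 10.06, 10.34 and 10.27 at 6 h with dexamethasone, against 10.29, 10.42 and 10.36 with ethanol, and the groups overlapped. After 24 h the values were 9.60, 9.50 and 9.69 with dexamethasone, against 10.04, 9.97 and 10.11 with ethanol. The lowest ethanol array lay above the highest dexamethasone array. SLC1A5 differed by -0.13 ± 0.09 at 6 h (adjusted p = 0.457; -0.60 on the poly-A scale, adjusted p = 0.00529). It fell by 0.44 ± 0.09 at 24 h (adjusted p = 0.0018), to 0.735 times the ethanol level.

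The SLC38 genes, which encode sodium-coupled glutamine and alanine carriers, went 3 ways. SLC38A5, known as SNAT5, carries glutamine, asparagine, serine and histidine in either direction. At 6 h it read 8.21, 8.27 and 8.24 with dexamethasone, against 8.21, 8.41 and 8.20 with ethanol. At 24 h it read 4.43, 5.90 and 5.59 with dexamethasone, against 8.09, 8.22 and 8.39 with ethanol. The 24 h dexamethasone arrays thus came near the level of 4, and differed more among themselves (SD 0.78, n = 3) than the ethanol arrays did (SD 0.15, n = 3).

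SLC38A5 differed by -0.04 ± 0.29 at 6 h (adjusted p = 0.970) and fell by 2.93 ± 0.29 at 24 h (adjusted p = 1.32e-05), which is 0.131 times the ethanol level. The differences within experiments 1, 2 and 3 were -3.66, -2.32 and -2.80. Ranked by log2 difference, it was the 17th lowest of the 23265 probe sets at 24 h. It had 1 probe set, so no other probes check it.

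SLC38A2, known as SNAT2, is the carrier that cells are known to raise when amino acids run short. Its brightest probe set, 222982_x_at, read 12.68, 12.70 and 12.65 at 6 h with dexamethasone, against 12.30, 12.46 and 12.39 with ethanol. The 24 h arrays read 13.12, 13.06 and 13.10 with dexamethasone, against 12.57, 12.62 and 12.55 with ethanol. The groups did not overlap at either time. SLC38A2 rose by 0.29 ± 0.06 at 6 h (adjusted p = 0.0242) and by 0.51 ± 0.06 at 24 h (adjusted p = 7.51e-05), and all 3 probe sets passed the test at both times.

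The rise of SLC38A2 depended on the scale: on the poly-A scale the difference was -0.18 at 6 h (adjusted p = 0.261) and 0.17 at 24 h (adjusted p = 0.305). The 6 h call also ended when any of the 3 dexamethasone arrays of 6 h was left out, and likewise for ethanol arrays 0 and 3 of 6 h. The adjusted p then lay between 0.0511 and 0.0831. Probe sets whose name ends in _x_at, as 2 of its 3 do, hold probes that can match other transcripts.

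SLC38A1, known as SNAT1, also takes up glutamine and alanine, and its probe sets gave different calls. The brightest, 224579_at, read 13.33, 13.36 and 13.34 at 6 h with dexamethasone, against 13.43, 13.44 and 13.51 with ethanol. After 24 h the values were 13.45, 13.51 and 13.48 with dexamethasone, against 13.45, 13.55 and 13.56 with ethanol. These differences, of -0.12 ± 0.06 and -0.04 ± 0.06, did not pass the test (adjusted p = 0.332 and 0.633). On the poly-A scale they did, at -0.58 and -0.38 (adjusted p = 0.00404 and 0.0298). Probe set 224580_at fell at 6 h (-0.42 ± 0.10, adjusted p = 0.0358), where 218237_s_at differed by -0.04 ± 0.08 (adjusted p = 0.847). At 24 h 218237_s_at rose (0.25 ± 0.08, adjusted p = 0.0221), and 224580_at had means of 8.25 with dexamethasone and 8.15 with ethanol. Probe set 236857_at was at or below 2.52 on all arrays and was not tested.

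SLC7A1, known as CAT-1, brings in arginine, lysine and ornithine and needs no heavy chain. Its brightest probe set, 212295_s_at, read 11.43, 11.55 and 11.35 at 6 h with dexamethasone, against 11.68, 11.79 and 11.86 with ethanol. The 24 h arrays read 10.22, 10.33 and 9.96 with dexamethasone, against 11.61, 11.69 and 11.60 with ethanol. Dexamethasone was lower in each experiment at both times, with no overlap. The difference was -0.33 ± 0.10 at 6 h (adjusted p = 0.0818; -0.80 on the poly-A scale, adjusted p = 0.00146). It passed at 6 h when dexamethasone array 3 of 24 h was left out (-0.33, adjusted p = 0.0441). SLC7A1 fell by 1.46 ± 0.10 at 24 h (adjusted p = 9.71e-07), to 0.362 times the ethanol level.

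All 4 tested probe sets of SLC7A1 fell at 24 h. Probe sets 212290_at and 212292_at fell by 1.75 ± 0.10 and 1.35 ± 0.28. The dim probe set 206566_at read 2.64, 3.07 and 2.62 with dexamethasone, against 5.40, 5.16 and 5.15 with ethanol. Its dexamethasone arrays all lay below a log2 of 4, so its fall is given as a bound, -1.24 or further down, measured against 4. At 6 h its difference was 0.32 ± 0.24 (adjusted p = 0.511), the opposite sign to the brightest probe set.

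SLC43A1, known as LAT3, lets large neutral amino acids such as leucine pass without sodium or exchange. It read 7.15, 7.67 and 7.22 at 6 h with dexamethasone, against 7.07, 7.95 and 7.24 with ethanol, and the groups overlapped. The 24 h arrays read 5.81, 6.17 and 5.53 with dexamethasone, against 7.13, 7.51 and 7.36 with ethanol. The difference was -0.08 ± 0.24 at 6 h (adjusted p = 0.911; -0.54 on the poly-A scale, adjusted p = 0.0237). SLC43A1 fell by 1.50 ± 0.24 at 24 h (adjusted p = 0.000416), to 0.354 times the ethanol level.

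**Figure D3:**
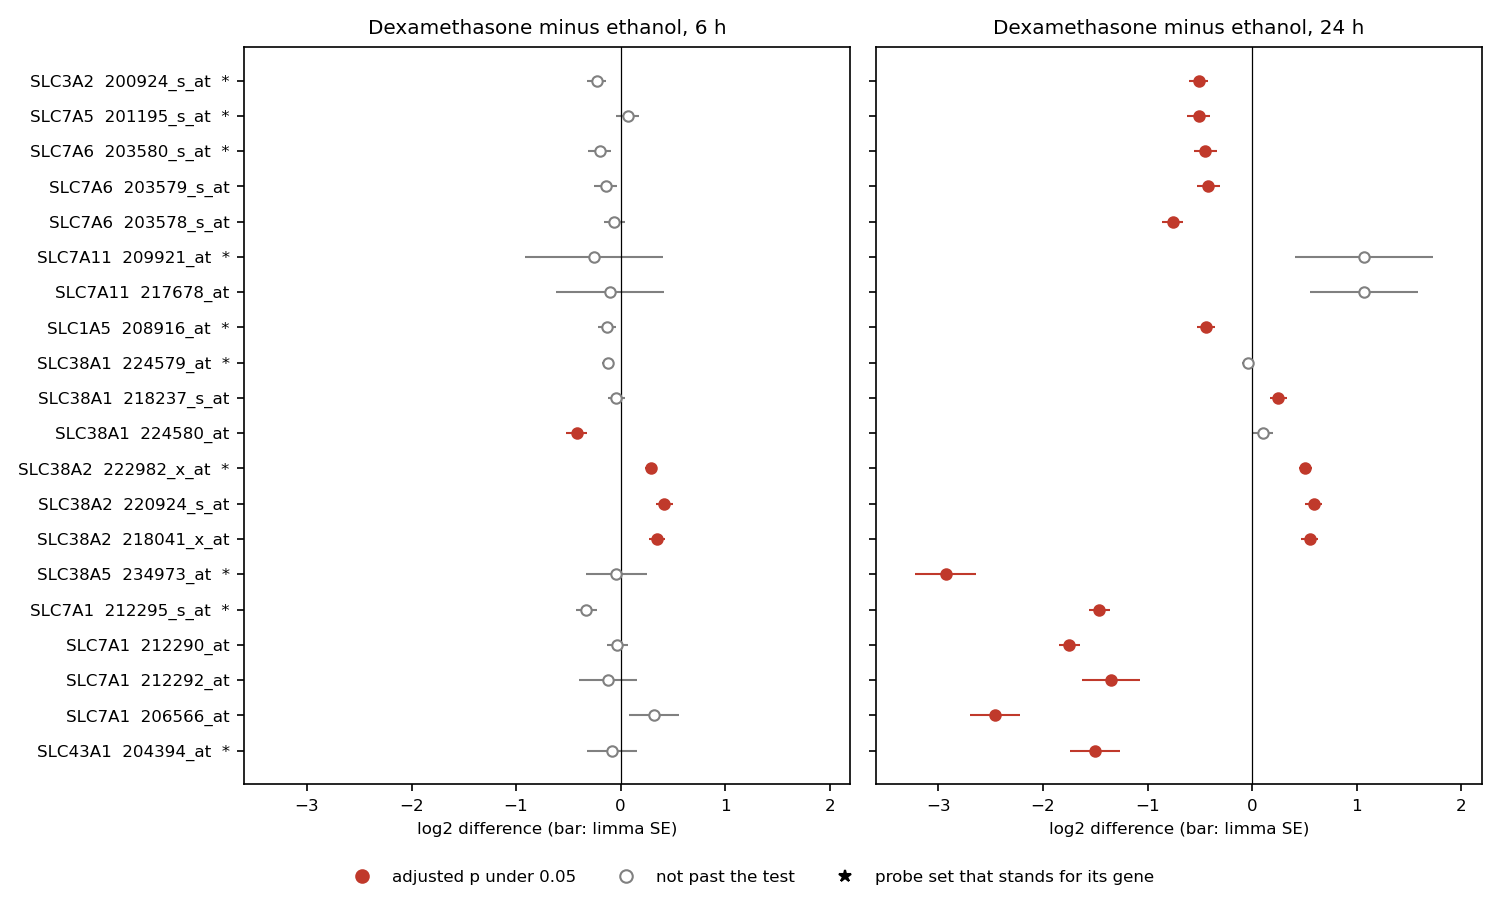
Log2 difference of dexamethasone minus ethanol at 6 h (left) and 24 h (right) for the 20 tested probe sets of the transporters, with limma standard errors; filled points passed the test and an asterisk marks the probe set that stands for its gene. At 24 h 12 probe sets fell and 4 rose, and at 6 h 1 fell and 3 rose.

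Over probe sets, 12 of the 20 fell and 4 rose at 24 h, against 24.5% and 22.8% of all tested probe sets (47.3% in all). At 6 h 1 fell and 3 rose, against 3.54% and 2.66%. The 24 h groups did not overlap for 9 of the 10 genes, 7 lower and 2 higher with dexamethasone, against 35.3% and 30.5% of all tested genes. At 6 h they did not overlap for 4, 3 lower and 1 higher, against 14.6% and 10.8%. On the poly-A scale 7 transporters fell and none rose at 6 h, and 8 fell and none rose at 24 h. On that scale 15132 of all tested probe sets were lower and 275 higher at 6 h, against 824 and 619 on the deposited scale. At 24 h 10064 were lower and 2227 higher, against 5693 and 5304.

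The response itself was compared between the times. Here the 24 h difference minus the 6 h difference was tested in the same model, and 4 of the 10 genes passed, all with a more negative response at 24 h. Of all tested genes 27.1% passed (14.8% of all tested genes lower and 12.3% higher). At an unadjusted p under 0.05 limma gave 7 of the 10, against 38.9% of all tested genes. The differences of responses were -2.89 ± 0.41 for SLC38A5 (adjusted p = 0.000676), -1.42 ± 0.34 for SLC43A1 (adjusted p = 0.0123), -1.13 ± 0.14 for SLC7A1 (adjusted p = 0.000346) and -0.58 ± 0.16 for SLC7A5 (adjusted p = 0.0231).

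The result for SLC7A5 was the least firm of these, at -0.45 on the poly-A scale (adjusted p = 0.177). It also ended, with an adjusted p between 0.0507 and 0.0556, when 1 of 6 arrays was left out: at 24 h dexamethasone array 1 or ethanol array 2 or 3, and at 6 h dexamethasone array 3 or ethanol array 0 or 1. For SLC38A2 the difference of responses was 0.22 ± 0.09 (adjusted p = 0.109). With the experiment as a block 7 genes passed: SLC1A5 (-0.31, adjusted p = 0.0273), SLC3A2 (-0.29, adjusted p = 0.0369) and SLC7A11 (1.32, adjusted p = 0.0138) were added. Under that block the share of all tested genes was 38.4%, so calls were more frequent in general. SLC1A5 also passed when dexamethasone array 0 of 6 h was left out (-0.39, adjusted p = 0.0356). Since this comparison holds the 6 h arrays, the array code enters it too.

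The ethanol cultures themselves were compared between 24 h and 6 h. The array code differs between these groups too, so that code and time cannot be told apart here. By limma none of the 10 genes passed, while 0.432% of all tested genes did (0.231% lower and 0.201% higher). At an unadjusted p under 0.05 there were 4 of the 10, against 15.9% of all tested genes. The differences ran between -0.40 for SLC7A6 (± 0.11, adjusted p = 0.134) and 0.20 for SLC38A2 (± 0.06, adjusted p = 0.182). SLC7A6 passed when ethanol array 1 of 6 h was left out (-0.51, adjusted p = 0.0492).

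Other amino acid transporters of the cell membrane and lysosome were read from a list of 39 genes, of which 36 had a probe set and 11 were tested. At 6 h 1 rose and none fell, against 2.72% and 3.77% of all tested genes. At 24 h 3 rose and 3 fell, a share near the 52.0% of all tested genes. SLC1A4, known as ASCT1, which carries alanine, serine and cysteine, rose by 0.77 ± 0.11 at 6 h (adjusted p = 0.00209; 0.30 on the poly-A scale, adjusted p = 0.0814). At 24 h it read 11.89 ± 0.06 with dexamethasone and 10.73 ± 0.15 with ethanol (SD, n = 3 each), a rise of 1.16 ± 0.11 (adjusted p = 8.96e-06). It is a close relative of SLC1A5, which fell.

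SLC6A20, a proline carrier, rose by 1.05 ± 0.24 at 24 h (adjusted p = 0.00395). SLC38A10 rose by 0.63 ± 0.20 (adjusted p = 0.0242), but its groups overlapped. That call ended when dexamethasone array 1 or 3 or ethanol array 1 or 2 of 24 h was left out (adjusted p between 0.0523 and 0.0807), with a difference of 0.38 without dexamethasone array 3. It also ended on the poly-A scale (0.29, adjusted p = 0.229), with no filter (0.63, adjusted p = 0.073), with only the 24 h arrays (0.63, adjusted p = 0.0677) and with the mean of probe sets (0.18, adjusted p = 0.10). Its probe set 230448_at differed by -0.05 ± 0.13 (adjusted p = 0.794). SLC43A2, known as LAT4 and a relative of SLC43A1, fell by 0.63 ± 0.18 (adjusted p = 0.0122). The lysosomal and membrane carrier SLC36A4 (-0.43 ± 0.10) and the taurine carrier SLC6A6 (-0.39 ± 0.08) fell too, with adjusted p of 0.00332 and 0.0029. The median of the 11 tested genes was -0.07 at 24 h.

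Of 9 mitochondrial amino acid carriers 7 were tested, and 3 fell and 1 rose at 24 h, also near the 52.0% of all tested genes. SLC25A15, which brings ornithine into mitochondria, fell at both times, by 0.58 ± 0.10 at 6 h (adjusted p = 0.00562) and by 1.67 ± 0.10 at 24 h (adjusted p = 2.71e-07). The aspartate and glutamate carrier SLC25A13 fell by 1.14 ± 0.11 (adjusted p = 1.42e-05) and the glutamate carrier SLC25A22 by 0.83 ± 0.09 (adjusted p = 3.8e-05) at 24 h. SLC25A44, a carrier of branched-chain amino acids, rose by 0.42 ± 0.08 (adjusted p = 0.00167; 0.087 on the poly-A scale, adjusted p = 0.610).

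**Figure D4:**
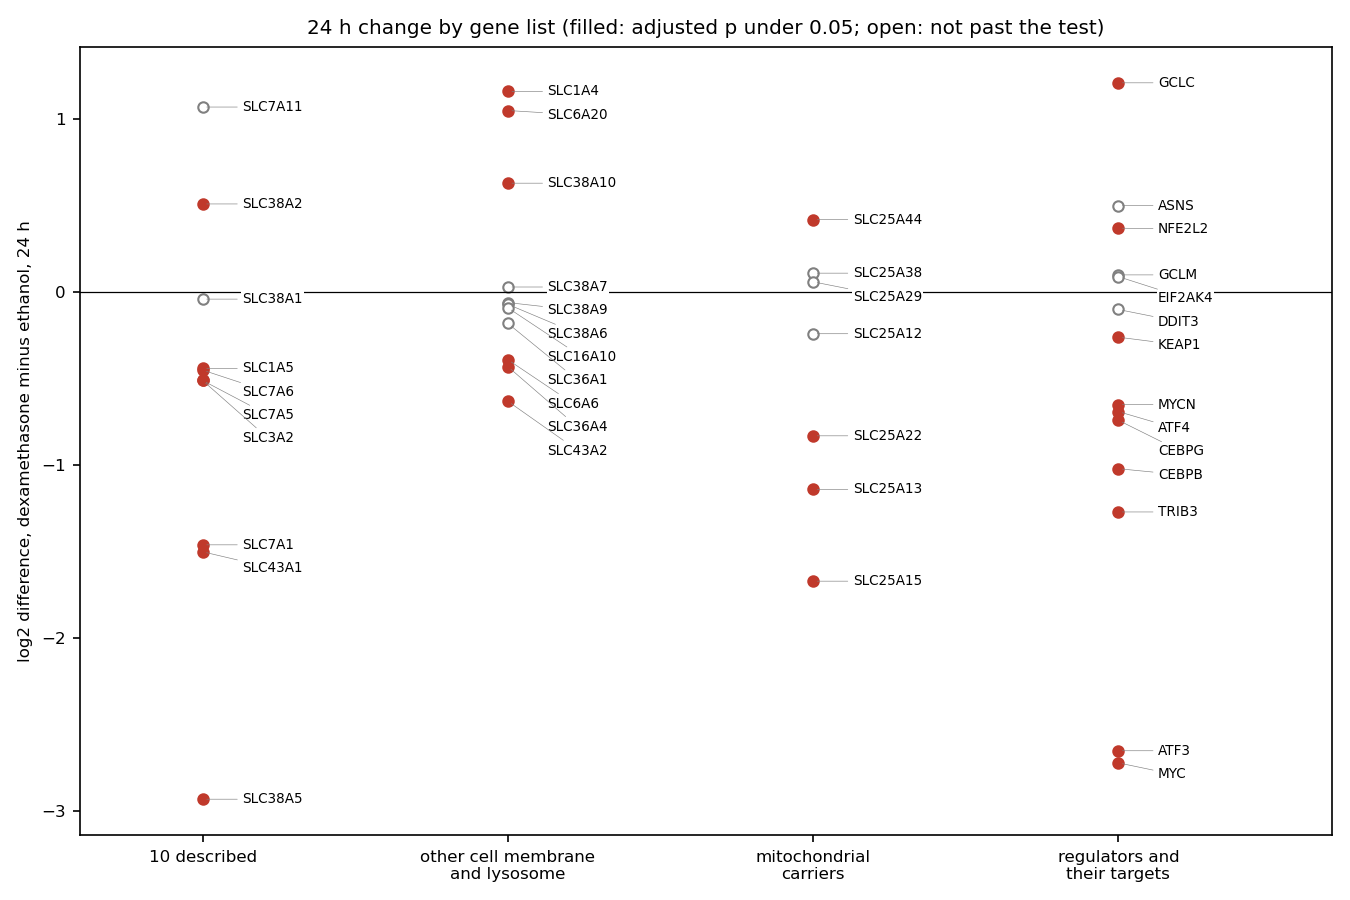
Log2 difference of dexamethasone minus ethanol at 24 h for each tested gene of 4 lists: the 10 transporters, the other transporters of the cell membrane and lysosome, mitochondrial carriers, and regulators with some of their targets. Filled points passed the test; among the 10 transporters SLC38A5 is the lowest at -2.93.

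A list of 15 regulators of transporter genes and some of their targets was read beside them, of which 14 were tested. At 24 h 8 fell and 2 rose, against 28.1% and 23.9% of all tested genes. At 6 h 1 fell and 1 rose, against 3.77% and 2.72%. MYC, which is known to drive transporter genes in T cells, fell by 0.99 ± 0.10 at 6 h (adjusted p = 0.000262) and by 2.72 ± 0.10 at 24 h (adjusted p = 1.6e-08). ATF4 read 12.09, 12.20 and 12.18 at 24 h with dexamethasone, against 12.80, 12.83 and 12.89 with ethanol. It fell by 0.69 ± 0.12 (adjusted p = 0.00086), after a difference of -0.15 ± 0.12 at 6 h (adjusted p = 0.543; -0.62 on the poly-A scale, adjusted p = 0.00456).

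Of the genes listed as relatives or targets of ATF4, ATF3 fell at 24 h by 2.65 ± 0.36, TRIB3 by 1.27 ± 0.15, CEBPB by 1.02 ± 0.09 and CEBPG by 0.74 ± 0.13. The adjusted p of each was 0.000751 or less. DDIT3 differed by -0.10 ± 0.24 (adjusted p = 0.760), and CHAC1 was not tested (both outside the naming rule). ASNS, another target, differed by 0.50 ± 0.32 (adjusted p = 0.232), and by 0.50 with the experiment as a block (adjusted p = 0.00699). NFE2L2, which encodes the antioxidant regulator NRF2 that acts on SLC7A11, rose by 0.49 ± 0.07 at 6 h (adjusted p = 0.00323) and by 0.37 ± 0.07 at 24 h (adjusted p = 0.00181). On the poly-A scale these differences were 0.023 and 0.035, and neither passed. GCLC, the enzyme that joins the cysteine delivered by SLC7A11 to glutamate, rose by 1.21 ± 0.12 at 24 h (adjusted p = 1.17e-05). GCLM, on the same list, did not rise, with means of 10.30 with dexamethasone and 10.20 with ethanol at 24 h. KEAP1, also listed, fell, with means of 9.63 and 9.89. The remaining fall on the list was MYCN, with means of 6.08 with dexamethasone and 6.73 with ethanol. GCLM, KEAP1 and MYCN lie outside the naming rule.

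The tested genes with the smallest difference in log2 profile over the 12 arrays were sought for SLC7A5 and SLC1A5. The measure was the root mean square difference between log2 profiles, each less its own mean, and it is a description. Profiles were not scaled, so the size of a change counts as well as its direction. For SLC7A5 the 5 nearest of 9947 genes were TXLNA, MAPKAP1, NF2, LMNB2 and CDK6, at 0.082 to 0.093. SLC3A2 ranked 32nd at 0.112, SLC1A5 158th at 0.138, SLC7A6 903rd at 0.194 and SLC38A5 9640th at 1.058. SLC38A5, which fell further than SLC7A5, thus ranked behind SLC38A2, which rose (7957th at 0.522). For SLC1A5 the nearest were KCTD13, RNF220, RPL39L, TMEM147 and ITPA, at 0.079 to 0.096, and SLC3A2 ranked 20th at 0.112.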

How the data were processed

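Per the submitters' processing notes, the authors computed the deposited log2 values of all 12 arrays with GCRMA (in R 2.6). This method corrects background by probe sequence, normalizes by quantiles and summarizes each probe set. The sources used here give no settings for it. Scanner files were not used here.

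Genes were named by the platform annotation, leaving out probe sets with several symbols and 62 control probe sets. Limma 3.58.1 (R 4.3.3) fitted 1 mean per group with empirical Bayes and 8 residual degrees of freedom, and was tested on simulated data.

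Experiment numbers in the titles pair the arrays. After group means were taken off, same-numbered dexamethasone and ethanol arrays correlated at 0.417, 0.627 and 0.609 at 6 h (experiments 0, 1 and 3) and 0.286, 0.238 and 0.424 at 24 h (experiments 1, 2 and 3). No other pair exceeded 0.05, but taking off group means ties these values to those of the same-numbered pairs. The model had no experiment term.

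The transporters, gene lists and tests were chosen with earlier results of these data known. From the other lists the text names up to 6 largest changes past the test per time and direction, and MYC, ATF4 and NFE2L2. Alternatives were an experiment block (within each time, or across both), no filter or a log2 of 6, scaling to 24 poly-A control probe sets or to the median, the arrays of 1 time alone, a variance trend, array weights, the mean of a gene's probe sets, and each array left out. Leaving out both 6 h arrays of experiment 1 was added after seeing the data. The number of arrays limits the precision.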

Additional observations from a re-analysis of the deposited data

Results flagged for a closer look

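These 4 results were flagged because the response differed between 6 h and 24 h by a test of that difference. Of all tested genes 27.1% passed the same test. The call for SLC7A5 ended under 8 of 22 alternatives, and those for SLC38A5, SLC43A1 and SLC7A1 under none. The 24 h response minus the 6 h response was -2.89 for SLC38A5, -1.42 for SLC43A1, -1.13 for SLC7A1 and -0.58 for SLC7A5 (log2). The array code of the 6 h groups is part of this comparison, and its part in these results was not tested.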

How the results depend on the processing

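The 7 falls at 24 h kept their direction and stayed past the test under every alternative tried. On the poly-A scale the count of transporters past the test was 7 at 6 h, 0 higher and 7 lower, and at 24 h 0 rose. There SLC38A2, SLC7A5 and ASNS at 6 h turned to -0.18, -0.40 and -0.27, and SLC38A1 between the ethanol times to -0.091. With the experiment as a replicate block 2 genes rose at 24 h (SLC7A11 added) and 7 passed the change of the response, 1 of them higher. Of the named genes ASNS was added at 24 h, and the block changed no other call. Over all probe sets 3039 passed at 6 h under the block, against 1443. Kept within each time, the block gives no ethanol comparison.

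With only the 6 arrays of the time 0 passed at 6 h and 2 rose at 24 h, and over all probe sets 490 passed at 6 h. The variance trend gave 2 calls at 6 h (1 lower, SLC7A1). For the change of the response it gave 1 higher (SLC38A2), as did no filter (SLC38A2) and the mean of probe sets (SLC38A1, with SLC7A6 added among the lower at -0.41, adjusted p = 0.0318). That mean turned SLC38A1 at 24 h to 0.10 and SLC7A1 between the ethanol times to 0.052, and array weights turned SLC7A11 there to 0.063. With both 6 h arrays of experiment 1 left out 0 passed at 6 h, 2 rose at 24 h and 1 fell between the ethanol times. SLC43A1 and SLC38A5 then turned to 0.028 and 0.017 at 6 h, and SLC43A1, SLC7A11 and SLC38A5 to 0.17, 0.66 and 0.027 between the ethanol times. Over all probe sets 617 then passed at 6 h and 671 between the ethanol times. The difference of responses of SLC7A5 did not pass there (-0.55, adjusted p = 0.0825).

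With 1 array left out, 0 to 2 transporters passed at 6 h (higher 0 to 1, lower 0 to 1), and 0 to 1 between the ethanol times. In these fits at 6 h SLC38A5 ran between -0.071 and 0.033, SLC43A1 between -0.25 and 0.19, SLC7A11 between -0.88 and 0.53, and ASNS between -0.13 and 0.55. Between the ethanol times SLC38A5 ran between -0.12 and 0.033, SLC43A1 between -0.27 and 0.17, and SLC7A11 between -0.63 and 0.66. Over all probe sets between the ethanol times 0 to 267 passed, against 113 with all arrays. That count was 479 with array weights, 190 with the filter at 6, 269 with the trend, 170 with the block across both times, 37 on the poly-A scale, 73 genes with the mean of probe sets and 4 with the ethanol arrays alone. At 6 h it fell to 848 to 955 when dexamethasone array 1 or 3 or ethanol array 0 or 3 was left out, and was 2219 with the block across both times. On the poly-A scale 15407 passed at 6 h, and for the change of the response 3299 (2282 higher, 1017 lower), against 5380 (2658 higher, 2722 lower). The mean of probe sets, with genes in place of probe sets, gave 820, 5439 and 2964 calls at 6 h, at 24 h and for the change of the response. For the other settings the cause was not tested. The number of arrays, 3 per group, limits what differences could be seen.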
